A study of Mus musculus with 6 samples.

Results

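The nuclear genome encodes most subunits of the 4 respiratory chain complexes and of ATP synthase, and the transcripts of these genes were compared between wild-type (WT) and *lincRNA-EPS* knockout (KO) osteoclast precursors (OCPs). Members were the protein-coding rows named *Ndufa*, *Ndufb*, *Ndufc*, *Ndufs* or *Ndufv* with a number, *Sdha* to *Sdhd*, *Uqcr*, *Cox4i* to *Cox8*, or *Atp5*, with pseudogene names left out. This gave 88 of the 57180 rows and of the 21400 protein-coding rows, namely 39 in complex I, 4 in complex II, 8 in complex III, 18 in complex IV and 19 in complex V. They lie on 19 chromosomes, with at most 8 on any of them. The WT cells came from C57BL/6 mice and the KO cells from mice that lack the long noncoding RNA lincRNA-EPS. Cells of both genotypes were labelled bone marrow-derived macrophages, were kept with 40 ng/ml of M-CSF for 24 h, and then had RANKL, the cytokine that starts osteoclast differentiation, at 40 ng/ml for 48 h. There were 3 libraries per genotype, described as independent biological replicates, and no library came from cells without RANKL.

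Complex I takes electrons from NADH and complex II from succinate, ubiquinone carries them to complex III, cytochrome c carries them to complex IV, and complex IV passes them to oxygen. Complexes I, III and IV pump protons, and complex V (ATP synthase) makes ATP as the protons flow back. Osteoclasts are rich in mitochondria, and their precursors build up respiratory capacity as they mature. Every complex except complex II also holds subunits encoded by mitochondrial DNA, which are no members here.

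The libraries held between 17757351 and 19998611 estimated counts. Values are given in counts scaled to library size by TMM (CPM), always in the order of replicates 1, 2 and 3. Levels between genes are given per length of the principal transcript (TPM). The targeted transcript, listed as *Ttc39aos1*, had 20, 37 and 41 counts in WT and 0 in each KO library, where a count of 0 allows up to 3. Each library carries a batch label of its own, so a batch and a library cannot be told apart. Of the libraries, 3 stood apart from others of their genotype. WT replicate 2 was low for short transcripts and for low GC content, with a median deviation of -0.25 (log2) for genes of 500 to under 1000 bases and r = 0.61 with GC, and KO replicate 3 ran against GC content, with r = -0.66 over 13176 genes (a description across genes that share libraries). KO replicate 2 had the strongest relation to length of any library, with r = -0.34, and was high for short transcripts. By a chi-square distance per degree of freedom over genes, KO replicate 1 lay nearer to WT replicates 1 and 3 (9.30 and 8.95) than to KO replicates 2 and 3 (39.2 and 56.9), while WT replicate 2 lay at 20.8 and 19.3 from the other WT libraries. The main counts of members are therefore also given without these libraries. In bulk RNA, fewer cells of a type and less RNA per cell cannot be told apart.

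Promoter sequences were available from RefSeq (build GRCm38.p6, 250 bases before to 50 after the start of a gene) for 70 of the 88 genes. They were searched on both strands for the core letters of 3 factors known for respiratory chain promoters, CGCATGCG for NRF1, CCGGAAG (or CTTCCGG) for the ETS factor GABP, and AAGATGGC (or GCCATCTT) for YY1. The NRF1 letters were found in 9 of the 70 genes (12.9%) and in 2.77% of 17492 protein-coding genes. The GABP letters stood in 17 genes (24.3%, against 12.95%) and the YY1 letters in 10 genes (14.3%, against 3.57%). By complex, I to V, the GABP counts were 4 of 33, 2 of 3, 2 of 5, 3 of 13 and 6 of 16. CCGGAAG and AAGATGGC share the letters AAG and could overlap, which was so in 0 genes. Of the genes, 5 held more than 1 of the motifs and *Atp5pf* held all 3. A match is a description of these windows and not a bound site.

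The stretches below show the NRF1 letters in capitals in promoters of complexes I, IV and V, to let the shared core be compared with its differing flanks. All are printed 5′ to 3′ in the direction of the gene.
*Ndufa11*, chr17:56717679-56717734, plus strand: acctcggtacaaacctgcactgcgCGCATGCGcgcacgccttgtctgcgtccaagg
*Cox6a1*, chr5:115349088-115349143, minus strand: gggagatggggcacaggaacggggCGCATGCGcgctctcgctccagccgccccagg
*Atp5mc2*, chr15:102671057-102671112, minus strand: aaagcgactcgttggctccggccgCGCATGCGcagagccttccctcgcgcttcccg
*Atp5me*, chr5:108434417-108434472, minus strand: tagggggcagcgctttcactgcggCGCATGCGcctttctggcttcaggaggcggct
*Atp5pf*, chr16:84835092-84835147, minus strand: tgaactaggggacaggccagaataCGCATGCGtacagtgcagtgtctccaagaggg

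The GABP letters, here in capitals, are shown for a subunit each of complexes II, III and V.
*Sdhd*, chr9:50603865-50603919, minus strand: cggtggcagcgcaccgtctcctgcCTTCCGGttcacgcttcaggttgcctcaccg
*Uqcr11*, chr10:80406857-80406911, minus strand: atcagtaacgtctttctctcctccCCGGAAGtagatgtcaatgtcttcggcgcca
*Atp5pd*, chr11:115419927-115419981, minus strand: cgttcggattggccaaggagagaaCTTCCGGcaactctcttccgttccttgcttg

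The YY1 letters were found in 7 complex I genes, 3 complex V genes and none of the others with a window. In 8 of these 10 genes they lay wholly after the start, on the strand of the gene. AAGATGGC contains ATG, the letters of a start codon, and whether translation starts there was not checked. A short stretch around the YY1 letters, which are in capitals, is shown for 3 complex I genes.
*Ndufs6*, chr13:73328433-73328460, minus strand: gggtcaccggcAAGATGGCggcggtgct
*Ndufs7*, chr10:80249462-80249491, plus strand: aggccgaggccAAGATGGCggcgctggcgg
*Ndufa9*, chr6:126849097-126849126, minus strand: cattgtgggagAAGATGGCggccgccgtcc

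The genes with the NRF1 letters had a median log2 fold change of 0.13 between KO and WT, from -0.06 to 0.64 over 9 tested genes, and the 57 tested genes with a window but without these letters had 0.33. For GABP the medians were 0.30 with the letters and 0.30 without, and for YY1 they were 0.40 and 0.29. The NRF1 medians were 0.00 with the letters and 0.19 without them when WT replicate 2 was left out, and 0.22 and 0.18 with a correction for GC content and transcript length, so their order turned. With that correction the YY1 medians were 0.21 and 0.18 and the GABP medians 0.225 and 0.17. These values are descriptions and were not tested.

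Most subunit transcripts had a somewhat higher level in the KO libraries, in every complex, but none passed the test across all genes. Of the 80 members with enough counts to be tested, 74 had a log2 fold change above 0 and 6 below, from -0.10 to 0.95. The median was 0.285, or 1.22-fold, where the median of all 13428 genes tested was 0.01. No member passed an adjusted p of 0.01 with a fold above 1.3, against 0.00745% of all genes, and none passed an adjusted p of 0.05, also against 0.00745% (1 gene each, edgeR's quasi-likelihood test). The lowest adjusted p among members was 0.147 and was shared by 21 of them.

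Without adjustment, 37 members were higher in KO at p under 0.05, where 13.0% of all genes were, and 0 members were lower, where 13.2% of all genes were. In 44 members all 3 KO libraries lay above all 3 WT libraries, against 16.9% of all genes, and in 0 members did they lie below, against 18.8%. DESeq2's test passed 19 of the 78 members it gave an adjusted p at 0.05, all of them higher in KO, against 3.55% of all genes.

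**Figure D1:**
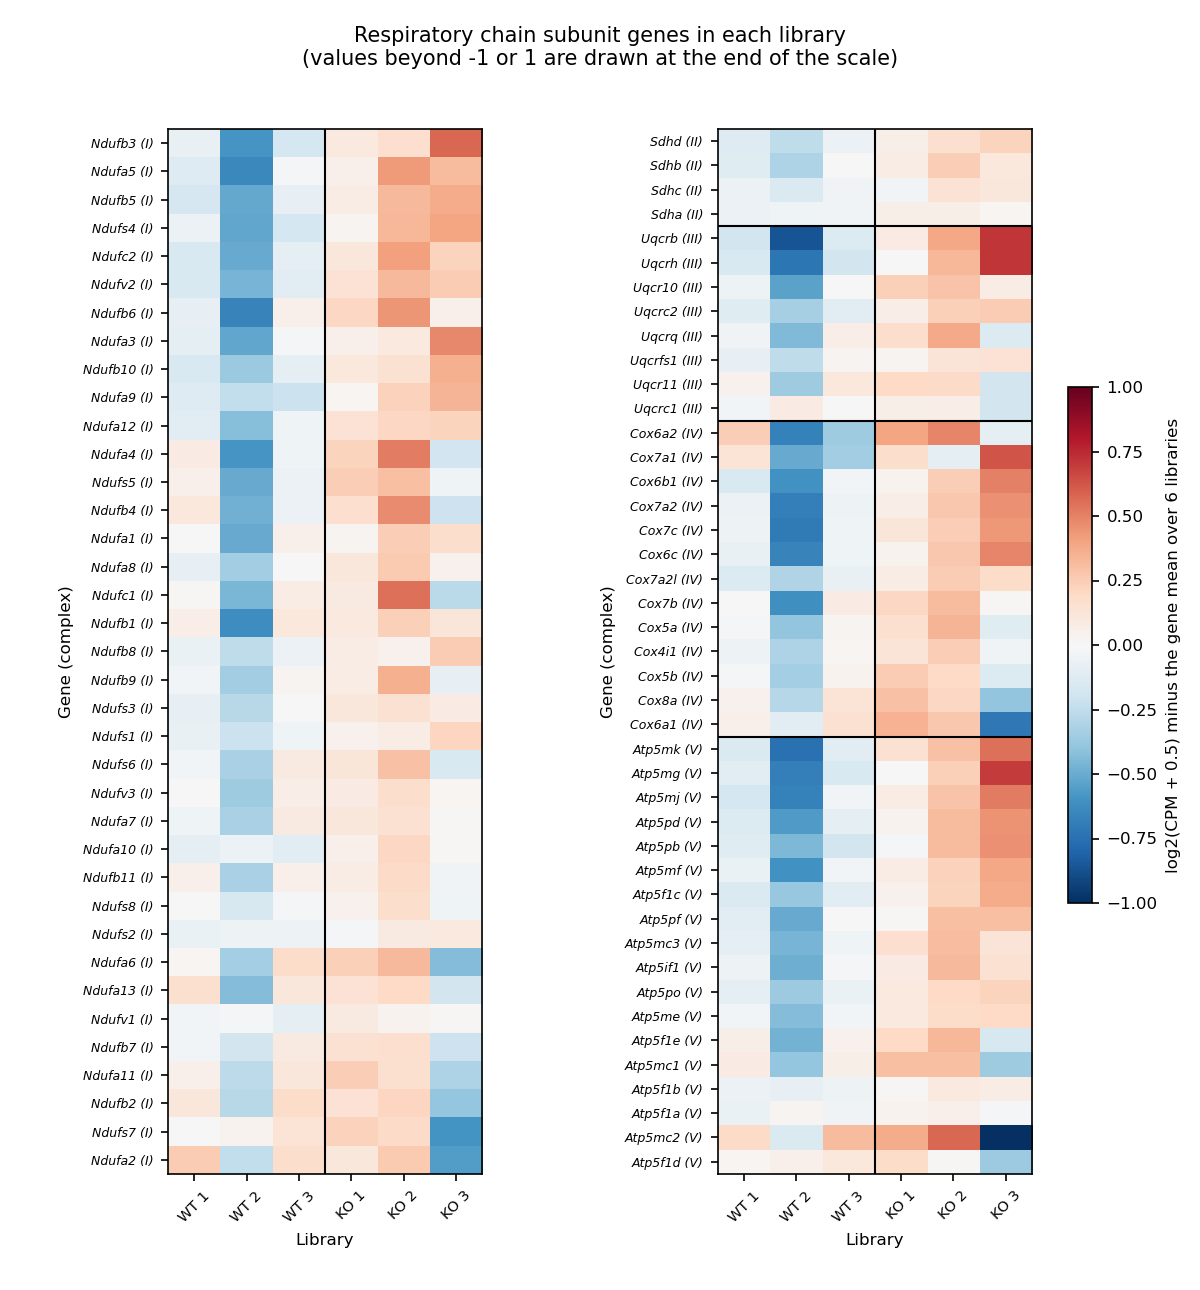
Each row is a tested subunit gene with its complex in brackets, each column a library, and the colour is log2(CPM + 0.5) minus the mean of that gene over the 6 libraries, red above and blue below. WT replicate 2 is the bluest column, KO replicates 1 and 2 are nearly all red, and KO replicate 3 holds both the deepest red (*Uqcrb*, *Uqcrh*, *Atp5mg*) and the deepest blue (*Atp5mc2*, *Cox6a1*) of the KO libraries.

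The median deviation of the 80 members from their own gene means was -0.06, -0.38 and -0.03 (log2) in WT replicates 1, 2 and 3 and 0.10, 0.24 and 0.09 in KO replicates 1, 2 and 3. The genotypes did not overlap in this median, and the within-genotype SD was 0.15 (n = 3 each). WT replicate 2 was the lowest library for 64 of the 80 members, against 29.7% of all genes. Without it the median was 0.181, 27 members had an unadjusted p under 0.05 and were higher (5.61% of all genes), and 45 did not overlap (19.5%). Without KO replicate 3, 71 members did not overlap (20.8%). KO replicate 2 was the highest library for 40 of the 80 members, KO replicate 3 for 30 and KO replicate 1 for 9. The shares of all genes were not counted for these. Without KO replicate 2 the median was 0.233, 28 members were higher at an unadjusted p under 0.05 (9.50% of all genes), and 45 did not overlap (20.8%).

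With both WT replicate 2 and KO replicate 3 left out, more members had separate genotypes. Both values of KO lay above both values of WT in 72 of the 80 members, where this held for 26.0% of all genes. The median log2 fold change over these 4 libraries was 0.223, from -0.03 to 0.82, with 79 members above 0. At an unadjusted p under 0.05, 47 members were higher (8.98% of all genes). The choice to leave these libraries out was made after seeing the data.

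**Figure D2:**
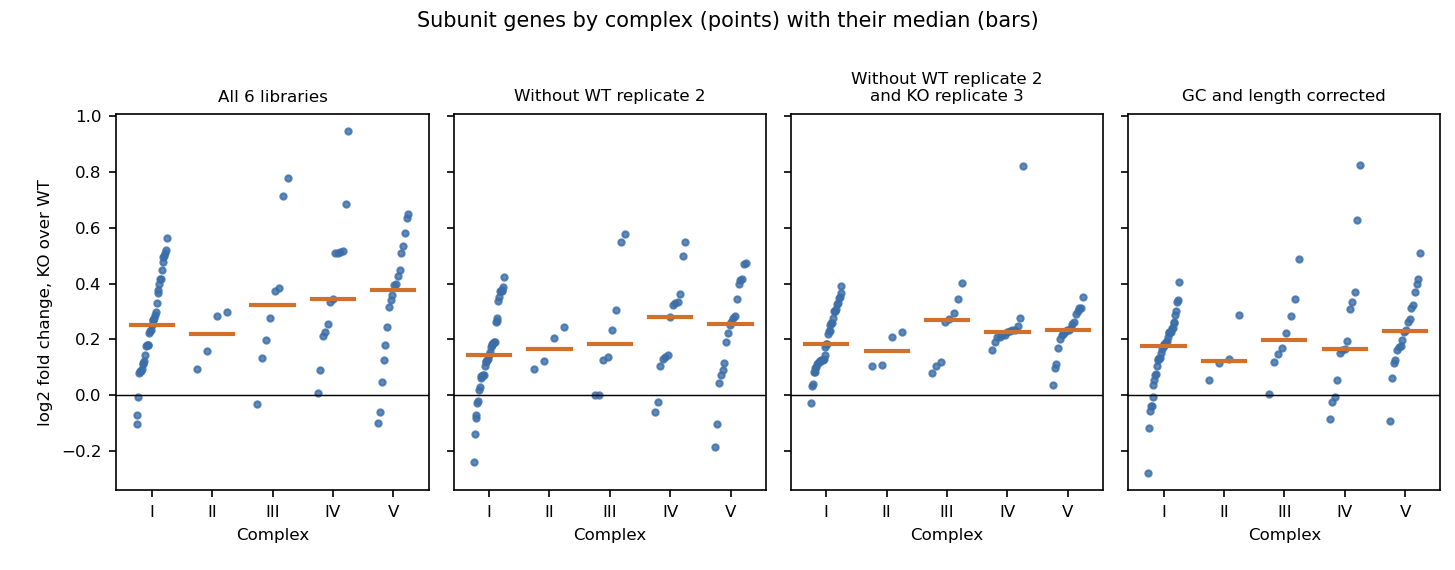
Each point is the log2 fold change of a subunit gene, KO over WT, by complex (x axis), and each bar is the median of a complex. The panels show all 6 libraries, the fits without WT replicate 2 or without it and KO replicate 3, and the fit corrected for GC content and transcript length. All medians lie between 0.12 and 0.38 and those of the complexes stand close together.

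By complex, the median log2 fold change was 0.25 in complex I (37 tested), 0.22 in complex II (4), 0.32 in complex III (8), 0.34 in complex IV (13) and 0.38 in complex V (18). The within-genotype SD of the complex medians was between 0.07 and 0.22, and differences between the complexes were not tested. Higher in KO at an unadjusted p under 0.05 were 14, 2, 4, 5 and 12 members of complexes I to V (13.0% of all genes). Non-overlapping libraries with KO above WT were seen in 18, 4, 4, 5 and 13 of them (16.9% of all genes). Without WT replicate 2 the medians of complexes I to V were 0.145, 0.164, 0.185, 0.281 and 0.257. With GC content and length fitted and removed they were 0.177, 0.123, 0.196, 0.167 and 0.229, so that complex IV was then below complex I.

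Between complexes the levels differed with the number of genes and their level per length. Summed over all 88 genes, the level was between 18913 TPM in WT replicate 2 and 25629 TPM in KO replicate 2, which is 1.89% to 2.56% of all transcripts per length. Complex V took between 6742 and 8852 TPM, complex I between 4840 and 6570 TPM, complex IV between 4473 and 6357 TPM and complex III between 1953 and 2822 TPM. Complex II, with 4 genes, took only 904 to 1029 TPM. In the sums of complexes II, III and V all KO libraries lay above all WT libraries. The sums of complexes I and IV overlapped. In KO replicate 3 they were 5596 and 5358 TPM, below WT replicate 1 (5807 and 5563 TPM) and WT replicate 3 (5829 and 5747 TPM).

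**Figure D3:**
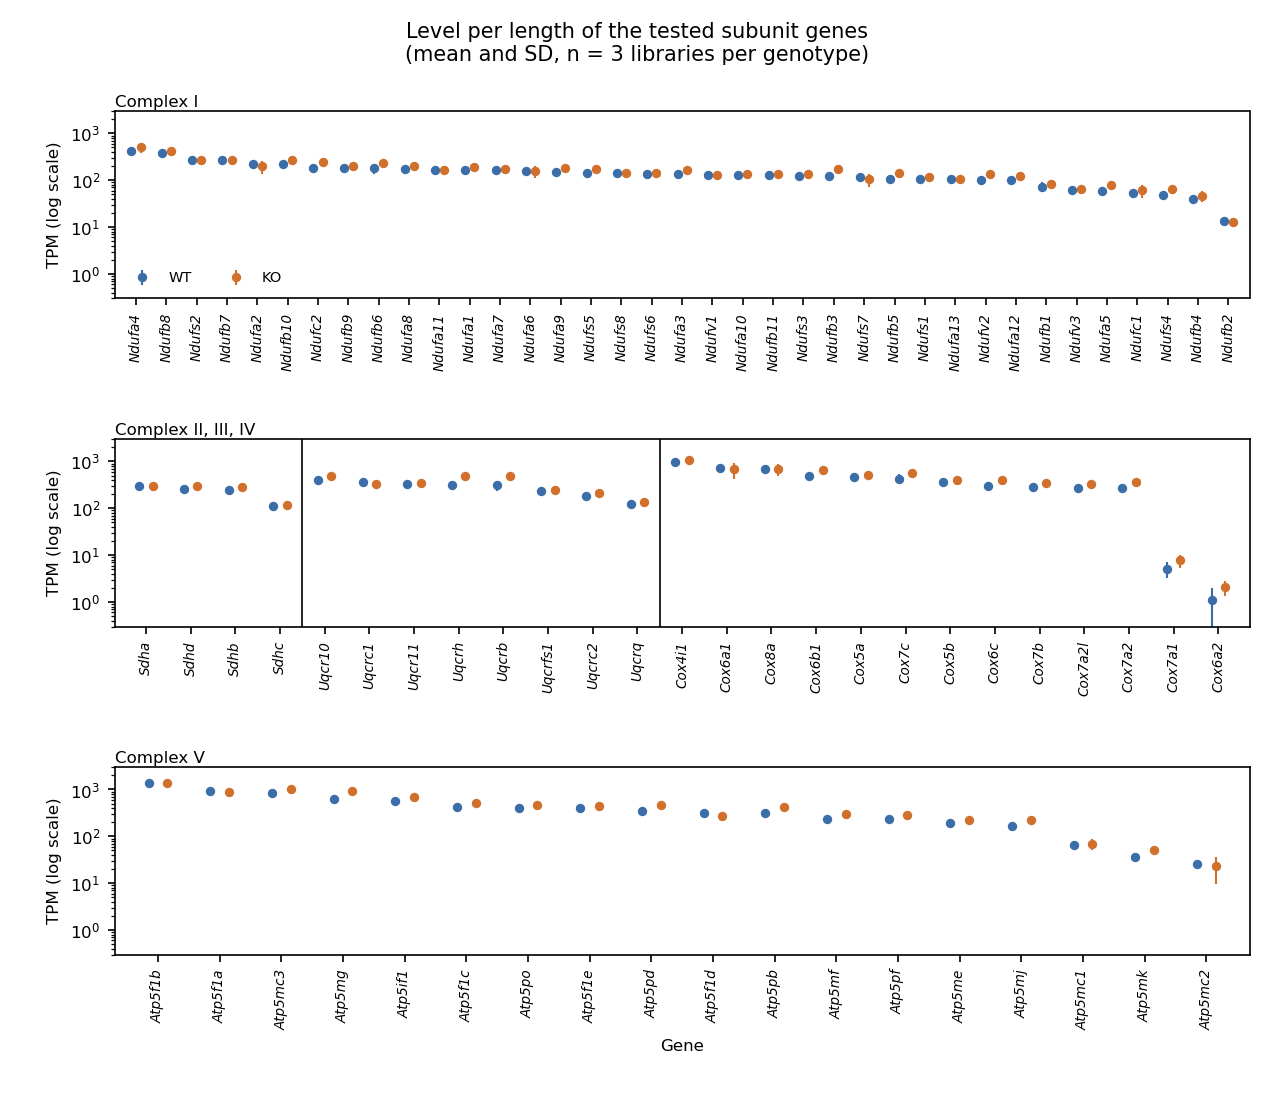
Points are the mean level per length in TPM, on a log axis, of each tested subunit gene in WT (blue) and KO (orange), bars are the SD over 3 libraries, and genes are ordered within each complex by the WT level. WT and KO points lie side by side up to the highest gene, *Atp5f1b*, at 1344 and 1369 TPM, and *Cox7a1* and *Cox6a2* lie far below the other complex IV genes.

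The highest level was that of *Atp5f1b*, the catalytic beta subunit of ATP synthase, at 1344 ± 22.4 TPM in WT and 1369 ± 33.6 TPM in KO (SD, n = 3). It was followed in WT by *Cox4i1*, a regulatory subunit of complex IV, at 983 ± 86.7 TPM in WT and 1079 ± 126 TPM in KO. *Atp5f1a*, the alpha subunit, was at 925 ± 55.4 TPM in WT and 893 ± 54.5 TPM in KO. Alpha and beta are present in several copies in each ATP synthase and had higher levels than *Atp5f1c*, *Atp5f1d* and *Atp5f1e*, the subunits of the central stalk, which lay between 311 and 415 TPM in WT. Lengths of principal transcripts are long for *Atp5mc1* (4715 bases) and *Ndufb2* (4371 bases), and the levels per length of these genes are uncertain.

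In complex I, the 7 core subunits that carry electrons from NADH to ubiquinone had a lower median fold change than the accessory subunits around them. The core subunits had a median log2 fold change of 0.12, from -0.07 to 0.48, and 2 of 7 had an unadjusted p under 0.05. The 30 tested accessory subunits had a median of 0.27, from -0.10 to 0.56, and 12 of 30 did (13.0% of all genes were higher at this p). The core transcripts are longer, with a median of 1623 bases against 748 bases. All KO libraries lay above all WT libraries in 5 of 7 core and 13 of 30 accessory subunits (16.9% of all genes). Without WT replicate 2 the median fold changes were 0.12 and 0.16, and with the GC and length correction they were 0.13 and 0.19. The difference was not tested, and this and the other groupings by role were made after the values were seen.

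*Ndufb3*, an accessory subunit of the membrane arm, was at 48.6, 33.8 and 45.1 CPM in WT and 54.6, 57.6 and 76.4 CPM in KO. *Ndufa5*, an accessory subunit near the quinone site, was at 25.7, 17.8 and 27.7 CPM in WT and 29.1, 37.9 and 35.2 CPM in KO. Both had KO values above all WT values, with log2 fold changes of 0.56 ± 0.17 and 0.52 ± 0.18 (SE) and adjusted p of 0.147 and 0.149. With the GC and length correction the values were 0.17 and 0.33.

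At the other end, *Ndufa2*, a small accessory subunit of the NADH-oxidising module, was at 65.5, 46.3 and 62.2 CPM in WT and 59.4, 65.8 and 37.1 CPM in KO. *Ndufs7*, a core subunit that holds the last iron-sulfur cluster before ubiquinone, was at 49.9, 51.1 and 55.0 CPM in WT and 58.6, 57.2 and 32.8 CPM in KO. KO replicate 3 was the lowest library for both, while the other KO libraries lay among or above the WT libraries. Their log2 fold changes were -0.10 ± 0.21 and -0.07 ± 0.20 and became 0.11 and 0.16 without KO replicate 3. *Ndufb2* was the other complex I gene below 0, at -0.01.

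*Ndufb8*, an accessory subunit often used as a protein marker of assembled complex I, was at 122, 107 and 123 CPM in WT and 135, 132 and 152 CPM in KO, with a log2 fold change of 0.25 ± 0.10 and no overlap. Per length, *Ndufa4* had the highest level of the genes named after complex I, 415 ± 88.1 TPM in WT and 503 ± 126 TPM in KO. It is known today as a subunit attached to complex IV. Its libraries overlapped, at 135, 84.7 and 124 CPM in WT and 149, 183 and 112 CPM in KO, and its log2 fold change was 0.37 ± 0.21 (0.19 without WT replicate 2 and -0.04 with the GC and length correction). Counting it with complex IV gave medians of 0.24 for complex I and 0.35 for complex IV. Its hypoxia-induced relative *Ndufa4l2* had 1 count in WT replicate 2 and none elsewhere. Of the 88 members, 26 had an estimated count that was not a whole number as deposited, with no tolerance, in at least 1 library, *Uqcrb*, *Atp5mg* and *Atp5mk* among them. RSEM divides reads that match several genes, so the values of these members are uncertain where pseudogenes or paralogues share their sequence.

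Complex II is the only complex made of nuclear-encoded subunits alone and also a citric acid cycle enzyme. All of its 4 genes had KO values above all WT values (16.9% of all genes), and 2 of 4 did so with the GC correction (14.7%) and with the GC and length correction (14.3%). *Sdha*, the flavoprotein that oxidises succinate, was at 392, 396 and 398 CPM in WT and 426, 425 and 414 CPM in KO. *Sdhb*, the iron-sulfur subunit, was at 131, 115 and 143 CPM in WT and 150.2, 169.8 and 154 CPM in KO. The log2 fold changes of the catalytic pair were 0.09 ± 0.08 for *Sdha* and 0.28 ± 0.11 for *Sdhb*. The membrane anchor *Sdhc* was at 162, 152 and 164 CPM in WT and 165, 186 and 182 CPM in KO, and the anchor *Sdhd* was at 148, 136 and 155 CPM in WT and 169, 181 and 189 CPM in KO. Their log2 fold changes were 0.16 ± 0.09 and 0.30 ± 0.09. *Sdha* had the smallest spread of the 4 genes and a value of 0.09 also without WT replicate 2. With the GC and length correction *Sdha* was at 0.05 and *Sdhd* at 0.12. The adjusted p values ran from 0.147 (*Sdhd*) to 0.473 (*Sdha*).

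Apart from the barely expressed *Cox6a2*, the largest fold changes of all members before any correction were in complex III. *Uqcrb*, a small subunit at the ubiquinone site (chr13:66900617-66905378, minus strand, GRCm38), was at 85.1, 53.2 and 88.3 CPM in WT and 102, 127 and 159 CPM in KO. *Uqcrh*, the acidic hinge subunit near the cytochrome c contact, was at 89.7, 60.2 and 88.0 CPM in WT and 99.9, 126 and 164 CPM in KO. KO replicate 3 was the highest and WT replicate 2 the lowest library for both. Their fold changes were 1.71 and 1.64, or 0.78 ± 0.21 and 0.71 ± 0.20 on the log2 scale, with adjusted p of 0.147 each. Without WT replicate 2 the log2 values were 0.58 and 0.55, and with the GC and length correction they were 0.28 and 0.49, below *Cox7a1* (0.63) and *Atp5mj* (0.51). Without correction, DESeq2 gave adjusted p of 0.0161 and 0.0215.

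*Uqcr10*, another small subunit and the one with the highest level per length in WT, was at 86.8, 62.0 and 89.8 CPM in WT and 107, 109.9 and 95.0 CPM in KO, again without overlap (0.38 ± 0.15, and 0.23 without WT replicate 2). The core protein *Uqcrc1* had its lowest value in KO replicate 3, at 257, 278 and 262 CPM in WT and 273, 275 and 231 CPM in KO, with a log2 fold change of -0.03 ± 0.10. *Uqcr11*, the smallest subunit, was at 71.5, 54.2 and 74.8 CPM in WT and 79.6, 79.1 and 61.1 CPM in KO (0.13 ± 0.15) and had a value of 0.00 without WT replicate 2. As in complex I, the small subunits had the higher median, 0.38 over 5 genes, against 0.20 over the Rieske protein and both core proteins. These medians were 0.23 and 0.13 without WT replicate 2, and 0.28 and 0.12 with the GC and length correction.

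In complex IV, the general forms of the subunits made up nearly the whole signal. *Cox4i1* was at 353, 296 and 371 CPM in WT and 401, 435 and 358 CPM in KO, where its lung and hypoxia form *Cox4i2* had between 0 and 2 counts. *Cox6b1*, which lies at the cytochrome c side, was at 145, 105 and 158 CPM in WT and 165, 191 and 228 CPM in KO, where the testis form *Cox6b2* had between 1 and 13 counts. The muscle form *Cox8b*, the testis form *Cox8c* and the testis form *Cox7b2* were at 0 in every library. With a limit of 3 counts, these last 3 forms were not detectable at this depth.

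*Cox6b1* had no overlap and a log2 fold change of 0.52 ± 0.17, and *Cox7a2*, at 91.0, 59.1 and 91.6 CPM in WT and 99.5, 115 and 131 CPM in KO, had a like value of 0.51 ± 0.18. *Cox7a2l*, which joins complexes III and IV into supercomplexes, was at 137, 122 and 143 CPM in WT and 159, 179.8 and 172 CPM in KO (0.35 ± 0.10). These 3 genes were among the 5 complex IV genes with an unadjusted p under 0.05, together with *Cox6c* and *Cox7c*. *Cox4i1* overlapped through KO replicate 3 and had 0.23 ± 0.12. *Cox7b*, at 144, 94.1 and 153 CPM in WT and 167, 179.9 and 145 CPM in KO, overlapped as well (0.33 ± 0.18). *Cox7a2* was at 0.33, *Cox4i1* at 0.14 and *Cox7b* at 0.145 without WT replicate 2. With the GC and length correction, *Cox6b1* was at 0.335, *Cox7a2l* at 0.16 and *Cox7b* at -0.09.

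*Cox6a1*, the general form of subunit 6a, was at 187, 168 and 200.4 CPM in WT and 229.9, 218 and 110.0 CPM in KO. *Cox8a*, the general form of subunit 8, was at 176, 140.0 and 188 CPM in WT and 209, 197 and 129.8 CPM in KO. In both, KO replicates 1 and 2 were above all WT libraries and KO replicate 3 was below them. The log2 fold changes were 0.01 ± 0.24 and 0.09 ± 0.18, and without KO replicate 3 both were 0.28. The muscle forms *Cox6a2* and *Cox7a1* had the largest fold changes of complex IV, 0.95 ± 0.57 and 0.69 ± 0.36, from very low levels. *Cox6a2* was at 0.652, 0.110 and 0.262 CPM in WT and 0.781, 0.863 and 0.407 CPM in KO, and *Cox7a1* was at 1.304, 0.657 and 0.787 CPM in WT and 1.35, 1.04 and 2.04 CPM in KO. *Cox6a2* was at 0.55 without WT replicate 2. Their libraries overlapped and the counts do not show a difference at this depth.

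In complex V, all 5 small membrane subunits and all 4 tested peripheral stalk subunits had non-overlapping libraries and an unadjusted p under 0.05, with medians of 0.58 and 0.46, where 16.9% and 13.0% of all genes met these criteria. Of the 5 subunits of the F1 head and central stalk, 1 had an unadjusted p under 0.05 (*Atp5f1c*), and the median was 0.13. Without WT replicate 2 these medians were 0.41, 0.33 and 0.09. The membrane subunits have short transcripts (median 612 bases) and the F1 subunits longer ones (median 1410 bases). After correction for GC content and length the medians were 0.32, 0.34 and 0.13, and 9 members of complex V had non-overlapping libraries in place of 13 (14.3% of all genes). The differences between these groups were not tested.

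*Atp5mk*, a small membrane subunit, was at 49.4, 32.4 and 50.6 CPM in WT and 60.6, 67.2 and 80.2 CPM in KO. *Atp5mg*, subunit g, which helps ATP synthases to pair, was at 175, 117 and 170.0 CPM in WT and 189.8, 222 and 307 CPM in KO. Both were lowest in WT replicate 2 and highest in KO replicate 3, at fold changes of 1.57 and 1.55 (0.65 ± 0.18 and 0.64 ± 0.20 on the log2 scale, adjusted p of 0.147 each). With the GC and length correction the log2 values were 0.40 and 0.32. *Atp5f1b* was at 1162, 1148 and 1173 CPM in WT and 1225, 1298 and 1274 CPM in KO, which is a narrow difference of 0.13 ± 0.09 without overlap. *Atp5f1d*, the delta subunit of the central stalk, was at 192, 197 and 205 CPM in WT and 216, 192 and 147 CPM in KO and overlapped (-0.10 ± 0.14).

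The rotating ring of ATP synthase is built from subunit c, which 3 genes encode as the same mature protein. *Atp5mc3* was at 287, 223 and 299 CPM in WT and 345, 382 and 337 CPM in KO and *Atp5mc1* was at 155, 112 and 153 CPM in WT and 181, 181 and 115 CPM in KO. *Atp5mc2* was at 8.73, 6.84 and 9.60 CPM in WT and 9.999, 11.6 and 2.75 CPM in KO. *Atp5mc3* had no overlap (0.40 ± 0.13), *Atp5mc1* overlapped (0.18 ± 0.19), and *Atp5mc2* was far below its other values in KO replicate 3 alone (-0.06 ± 0.41). The inhibitor *Atp5if1*, which stops ATP synthase from running in reverse, was at 151, 111 and 154 CPM in WT and 166, 196 and 174 CPM in KO without overlap, with a log2 fold change of 0.36 ± 0.14 and adjusted p of 0.161. *Atp5if1* was at 0.22 and *Atp5mc1* at 0.04 without WT replicate 2, and with the GC and length correction *Atp5if1* was at 0.23 and *Atp5mc3* at 0.20. A further row named *Atp5po* was at 0 in every library and *Atp5po* is given by the row that holds its counts (0.34 ± 0.11).

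The 8 members that were not tested were *Ndufa4l2*, *Ndufb11b*, *Cox4i2*, *Cox6b2*, *Cox7b2*, *Cox8b*, *Cox8c* and the empty *Atp5po* row. Of these 8, 5 were at 0 in every library and none had more than 13 counts.

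Transcript length and GC content moved with these values. The members are short, with a median of 850 bases where all genes tested had 2909, and their GC content was 51.6% against 49.8%. Among genes of 500 to under 1000 bases, 42 members had a median log2 fold change of 0.35 and 802 other genes had 0.195. Among genes of 1000 to under 2000 bases, 24 members had 0.28 and 2822 other genes had 0.07. For genes under 500 bases the medians were 0.30 (6 members) and 0.23 (142 other genes). Shorter members were also somewhat higher than longer ones, with 0.34 for 48 members under 1000 bases and 0.23 for the other 32, or 0.19 and 0.14 without WT replicate 2.

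**Figure D4:**
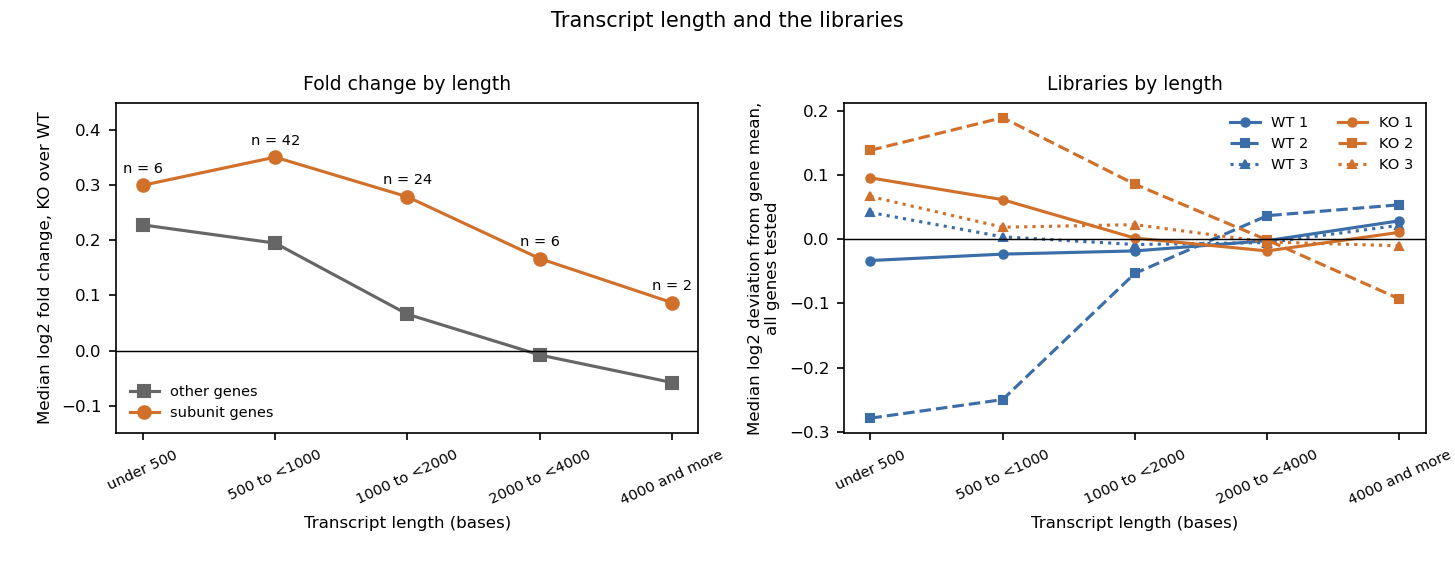
The left panel shows the median log2 fold change, KO over WT, by class of transcript length for subunit genes (orange, with their number) and other genes (grey). The right panel shows the median log2 deviation of each library from the gene means over all genes tested. Subunit genes lie above other genes in each length class, the line of other genes falls with length, and WT replicate 2 is lowest and KO replicate 2 highest for genes under 1000 bases.

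With GC content and length fitted in each library and removed, the median of all members was 0.181, with 70 of 80 above 0. At an unadjusted p under 0.05, 37 members were higher (11.6% of all genes), 35 did not overlap (14.3%), and 0 members passed an adjusted p of 0.05, where 2.86% of all genes did. With GC content alone removed, the median was 0.359 and 56 members were higher at an unadjusted p under 0.05 (12.5% of all genes) and 57 did not overlap (14.7%). Within KO replicate 3, the deviation of members had r = -0.43 with GC content over 80 genes, and the 9 members of at least 58% GC had a median log2 fold change of 0.09, where 1325 other genes in that class had -0.36. Members had the higher median in each of the 6 GC classes. The part of these library properties in the members' values was not tested.

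Assembly factors, which build the complexes and are no part of them, had a lower median than the subunits, a difference that was not tested. Of 53 tested factors, 44 were above 0 and 9 below, with a median of 0.187 (0.114 without WT replicate 2 and 0.112 with the GC and length correction), and 14 were higher at an unadjusted p under 0.05 and 0 lower, against 13.0% and 13.2% of all genes. By complex the medians were 0.19 (I), 0.33 (II), 0.21 (III), 0.14 (IV) and 0.30 (V). These were 0.16, 0.19, 0.20, 0.06 and 0.24 without WT replicate 2, and 0.125, 0.09, 0.22, 0.09 and 0.13 with the correction. *Ndufaf4*, a factor for complex I, was at 27.1, 21.0 and 30.1 CPM in WT and 37.3, 41.2 and 55.0 CPM in KO (0.77 ± 0.18). It had an adjusted p of 0.147 and, with the GC and length correction, of 0.0254, at a value of 0.45.

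Among 9 electron carriers and subunits whose names fall outside the rule, 3 were higher at an unadjusted p under 0.05 (13.0% of all genes), 0 were lower and the median was 0.17 (0.09 with the GC and length correction). *Cycs*, cytochrome c, was at 126, 82.3 and 121 CPM in WT and 146, 184 and 254 CPM in KO (0.82 ± 0.22, adjusted p 0.147, and 0.0473 at a value of 0.52 with the GC and length correction). The 13 mitochondrially encoded messenger RNAs were all above 0, with a median of 0.95, 9 of 13 higher at an unadjusted p under 0.05 (13.0% of all genes) and 0 lower. Their summed level was 9755 to 14870 CPM in WT and 17020 to 32770 CPM in KO, highest in KO replicate 3, and the corrected median was 0.32. Their counts in mRNA libraries depend on poly(A) selection, which was not tested.

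Of 15 tested regulators of respiratory chain transcription, 5 were above 0 and 10 below. Some of them, such as *Tfam* and *Polrmt*, act on mitochondrial DNA, which holds no members. Of the 15, 3 were higher and 4 lower at an unadjusted p under 0.05 (13.0% and 13.2% of all genes). Their median was -0.13 and the corrected median -0.02. *Nrf1* was at 36.8, 38.9 and 36.5 CPM in WT and 38.0, 38.4 and 27.1 CPM in KO (-0.12 ± 0.14). *Gabpa*, the DNA-binding subunit of GABP, was at 63.4, 52.2 and 64.5 CPM in WT and 63.6, 64.6 and 78.2 CPM in KO (0.20 ± 0.12). *Ppargc1b*, the coactivator tied to mitochondria in osteoclasts, was at 24.97, 32.2 and 25.03 CPM in WT and 30.3, 26.4 and 18.4 CPM in KO (-0.13 ± 0.19). Each of these 3 overlapped between genotypes. *Yy1* was at 109, 127 and 112 CPM in WT and 101, 102 and 105 CPM in KO. All its KO libraries lay below its WT libraries (-0.17 ± 0.09). Its value was -0.10 without WT replicate 2 and 0.01 with the GC and length correction. *Ppargc1b* was at 0.00 without WT replicate 2 and at 0.19 with the GC and length correction, which turned its direction, and *Gabpa* was at 0.105 and 0.01. *Ppargc1a*, a relative of *Ppargc1b*, had no more than 1 count in any library. *Esrra*, a nuclear receptor that works with both, was at 67.5, 63.4 and 71.4 CPM in WT and 73.3, 68.1 and 38.3 CPM in KO (-0.17 ± 0.21), low in KO replicate 3 alone, and its direction turned to 0.24 with the correction. *Tfam*, which packages and transcribes mitochondrial DNA, was at 26.4, 22.6 and 25.6 CPM in WT and 29.1, 30.3 and 38.1 CPM in KO, without overlap (0.39 ± 0.13, adjusted p 0.152). The other higher genes were *Tfb1m* and *Tfb2m*, which act in the expression of mitochondrial genes, at 0.44 ± 0.14 and 0.48 ± 0.16. The largest value of the list was that of *Polrmt*, the mitochondrial RNA polymerase, at 30.4, 39.1 and 33.5 CPM in WT and 27.6, 23.5 and 15.02 CPM in KO. Its KO libraries were all below its WT libraries (-0.64 ± 0.21, adjusted p 0.147 in edgeR and 0.0464 in DESeq2), and its value was -0.18 with the GC and length correction. The other lower genes were *Hcfc1* (-0.49 ± 0.18) and *Myc* (-0.34 ± 0.15), both without overlap, and *Pprc1* (-0.38 ± 0.17), with overlap. With the GC and length correction these 3 were at -0.15, -0.16 and -0.06, and *Tfb1m* and *Tfb2m* at 0.15 and 0.21. *Myc* was at -0.145 without WT replicate 2. *Hif1a*, the oxygen-regulated factor, was at -0.02 ± 0.11 and, with the correction, at -0.22 with an adjusted p of 0.0498.

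Markers of other cell types were read for the same libraries. The 8 macrophage markers were all below 0 (median -0.26) and 4 were lower at an unadjusted p under 0.05 (13.2% of all genes), with a summed level of 16880 to 17980 CPM in WT and 15210 to 17900 CPM in KO. Of 11 osteoclast precursor markers, 9 were above 0 (median 0.38) and 6 higher at an unadjusted p under 0.05 (13.0% of all genes), with a sum of 5252 to 5678 CPM in WT and 7003 to 7419 CPM in KO. Of 10 tested neutrophil markers, 6 were higher and 2 lower at an unadjusted p under 0.05 (13.0% and 13.2% of all genes), and their sum was 1298 to 1458 CPM in WT and 1717 to 2046 CPM in KO. *Ly6g*, a surface marker of mature neutrophils, was at 0.25 CPM or less in every library, but other markers were not near 0. *Cxcr2*, the chemokine receptor of neutrophils, was at 7.17, 6.40 and 4.57 CPM in WT and 11.9, 13.6 and 14.97 CPM in KO (1.16 ± 0.18, adjusted p 0.120 in edgeR and 7.6e-05 in DESeq2). *S100a8* was at 214, 133 and 186 CPM in WT and 263, 328 and 436 CPM in KO and *S100a9* at 416, 289.8 and 367 CPM in WT and 552, 629 and 684 CPM in KO. These 3 genes, *Retnlg*, *Ngp* and *Ltf* had all KO libraries above all WT libraries, while *Elane*, *Mpo* and *Prtn3*, granule genes of earlier stages, had all of them below. B cell markers summed to 6.56 to 9.20 CPM, T cell markers to 4.68 to 7.12 CPM, nearly all of it *Cd4*, and stromal markers to 21.6 to 33.4 CPM. Of 6 erythroid markers, 5 had no more than 3 counts in any library. With the GC and length correction, 6 osteoclast precursor, 3 macrophage and 4 neutrophil markers passed an adjusted p of 0.05, as 2.86% of all genes and 0 members did. The part of these cells in the members' values was not tested.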

How the data were processed

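RNA was sequenced from 3 WT and 3 KO samples of RANKL-primed bone marrow-derived macrophages. What the authors deposited was 1 table with an estimated count for each gene and library, not normalized, from stranded mRNA libraries. The submitters' processing notes name fastp, HISAT2, StringTie and RSEM and the build GRCm39, without versions. The authors' genotype means in 2 further columns were not used. Groups came from the labels, and p-values measure the spread between these samples. Libraries held 17757351 to 19998611 estimated counts.

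Estimated counts were rounded to whole numbers. In R 4.3.3, edgeR 4.0.16 was used with filterByExpr, TMM, glmQLFit (legacy = FALSE) and glmQLFTest, with Benjamini-Hochberg adjustment over the 13428 genes kept. The standard error is the size of the log2 fold change divided by the root of F. DESeq2 1.42.0 and limma 3.58.1 served as alternatives. Library deviations used log2(CPM + 0.5). Transcript length, GC content and TPM came from the APPRIS principal transcript of GENCODE M21 (GRCm38, not the build of the counts), found for 51884 identifiers and all 88 members. Corrections fitted natural splines with 5 degrees of freedom to each library. The script was tested on simulated data.

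The members and lists were chosen with earlier results of these data known. Named genes were, per complex, the 2 highest and 2 lowest by fold change and the 2 highest by level, all of complex II, paralogue sets, the inhibitor and 6 regulators. Other members and list genes named were chosen after their values were seen. The limit of 3 counts covers counting error only.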

Additional observations from a re-analysis of the deposited data

How the results depend on the processing

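The median log2 fold change of all members stayed above 0 under all 18 alternatives, and no member passed the stricter limit in any of them. With each library left out in turn it ran from 0.18 to 0.37. For complexes I to V the median ran from 0.15 to 0.31, 0.16 to 0.27, 0.19 to 0.39, 0.28 to 0.46 and 0.26 to 0.46. Members higher at an unadjusted p under 0.05 numbered 27 without WT replicate 2 (5.61% of all genes) to 51 without KO replicate 3 (8.97%). The share of all genes was highest without KO replicate 1, at 16.5%, with 34 members. Higher without overlap were 45 members without WT replicate 2 (19.5%) to 71 without KO replicate 3 (20.8%). That share was also highest without KO replicate 1, at 26.8%, with 47 members. Lower without overlap were 0 to 1 members. DESeq2 passed 19 members at an adjusted p of 0.05, where edgeR passed 0. The GC correction gave 56 members higher at an unadjusted p under 0.05, also with the replicate block. With WT replicate 2 and KO replicate 3 both left out, 72 members were higher without overlap, and 71 were so with KO replicate 3 alone left out. Without any single other library the number was 45 to 51. The GC and length correction moved the medians of complexes I to V to 0.18, 0.12, 0.20, 0.17 and 0.23, a change of over 1.5 times in all but complex I. The cause was not tested. Both this correction and the removal of the library pair were chosen after seeing the data.

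Same-numbered libraries had correlated deviations of -0.49, 0.22 and 0.39, so the numbers were not taken to pair the samples. WT replicate 3 correlated best with KO replicate 3 and WT replicate 1 did so too. With the replicate block the median was 0.30, 35 members were higher at an unadjusted p under 0.05 (12.6% of all genes), 44 did not overlap (16.9%) and 0 passed the limits.

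Of 575 values of 32 named genes, 33 in 9 genes changed sign and none of them passed a limit. Under the GC correction, alone and with the block, *Ndufs7* was 0.23 and 0.23, *Uqcrc1* 0.22 and 0.22, *Atp5f1d* 0.21 and 0.21, and *Atp5mc2* 0.10 and 0.015. With GC content and length removed, *Ndufa4* was -0.039, *Ndufs7* 0.075, *Uqcrc1* 0.15, *Cox7b* -0.086 and *Atp5f1d* 0.12. Without WT replicate 2 and KO replicate 3, *Ndufs7* was 0.14, *Uqcrc1* 0.078, *Atp5f1d* 0.038 and *Atp5mc2* 0.23. *Cox6a1* was -0.004 with library size alone, -0.003 without a filter, -0.063 with limma-voom and -0.056 with the block. With each library left out in turn, *Ndufa2* ran from -0.27 to 0.11, *Ndufs7* from -0.21 to 0.16, *Uqcrc1* from -0.077 to 0.044, *Cox6a1* from -0.17 to 0.28, *Cox8a* from -0.036 to 0.28, *Atp5f1d* from -0.22 to 0.042 and *Atp5mc2* from -0.40 to 0.36.

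With 3 libraries per genotype and a common biological coefficient of variation of 0.142, the spread between libraries limits what can be told apart, and for *Cox6a2* and *Cox7a1* so do their low counts.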

Other observations

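The citric acid cycle feeds complex I with NADH and complex II with succinate, and its genes were read beside the subunits. Of 17 tested genes, 15 were above 0, 7 were higher at an unadjusted p under 0.05 and 0 lower (13.0% and 13.2% of all genes), with a median log2 fold change of 0.18 (0.12 after correction for GC content and length, 0.14 without WT replicate 2). None passed an adjusted p of 0.05 in edgeR's quasi-likelihood test, while DESeq2 gave *Dld*, *Pdhb* and *Idh3a* adjusted p of 0.0170, 0.0179 and 0.0246. *Dld*, the dihydrolipoamide dehydrogenase shared by several oxidation complexes, was at 142, 109 and 134 CPM in WT and 159, 191 and 246 CPM in KO, with a log2 fold change of 0.63 ± 0.17 (SE) and an adjusted p of 0.147, and of 0.0393 at a value of 0.30 with the correction. *Pdhb*, a subunit of pyruvate dehydrogenase, was at 118, 102 and 119.9 CPM in WT and 138, 154 and 165 CPM in KO (0.43 ± 0.11, and 0.21 with the correction). *Cs*, citrate synthase, was at 419.6, 445 and 425 CPM in WT and 468, 492 and 501 CPM in KO (0.18 ± 0.09). In these 3 genes, which were chosen after their values were seen, all KO libraries lay above all WT libraries. *Ogdh* was below 0, with overlapping values of 300.2, 357 and 310.3 CPM in WT and 309, 297 and 252 CPM in KO (-0.17 ± 0.11).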
